A study of Mus musculus with 72 samples.

Results

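The 8 genes described here encode chaperones and proteases that keep the proteins of mitochondria folded, assembled or cleared: Clpx, Clpp, Lonp1, Hspa9, Hspd1, Hspe1, Trap1 and Yme1l1. They were taken by symbol from a table of read counts for 27846 genes, by a rule that uses no measured value. All 8 were in the table, and all 8 were among the 15066 genes that passed the filter on low counts. One of them, Clpx, had a 24 h rhythm that ranked among the strongest in control livers. That rhythm changed over clock time in misaligned males, where it did not pass its own test. The other 7 varied little by comparison.

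The counts come from poly(A) RNA of whole liver from wild type C57bl6 mice aged 8 to 16 weeks. The mice were control females, misaligned females, control males or misaligned males, where misaligned means exposed to chronic circadian misalignment. Controls and misaligned mice alike changed from standard chow to a diet that drew 42% of its calories from fat once the paradigm had begun. Each sex and treatment was sampled at clock times of 0, 4, 8, 12, 16 and 20 h, with 3 mice at each of these 6 times, which gave 24 groups, 72 libraries and 18 libraries per sex and treatment. The schedule of misalignment, and how the stated clock time of a misaligned mouse related to its light cycle on the day of collection, are not given in the sources used here. Earlier and later therefore refer to the stated clock time alone.

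The gene counts summed to between 11551524 and 12529963 per library (median 12005221). No library went against its sex label. All 6 hepatocyte markers checked (Alb, Apoa1, Ttr, Cps1, Cyp2e1 and Hnf4a) were detected in each sex and treatment. Their summed level had a median of 110494 CPM (counts scaled to a common library size, as edgeR gives them) in control females, 109695 in misaligned females, 83528 in control males and 84215 in misaligned males. Marker sums of red cells and platelets had medians of 351, 146, 200 and 246 CPM in the same order. Between control females and control males, stellate cell markers had medians of 421 and 713 CPM, Kupffer cell and macrophage markers 468 and 307, and adipocyte markers 1.04 and 15. The part of these differences in the results below was not tested. In whole liver, fewer cells of a type and less RNA per cell cannot be told apart.

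Most mitochondrial proteins are made in the cytosol and enter the organelle unfolded. In the matrix, mortalin (Hspa9), the mitochondrial member of the HSP70 family, pulls them in and passes some on to the HSP60 chamber (Hspd1), which is closed by its lid HSP10 (Hspe1), while TRAP1 is the mitochondrial member of the HSP90 family. Proteins that are damaged or no longer needed are degraded by ATP-driven proteases: LONP1 and ClpXP in the matrix and YME1L1 in the inner membrane, facing the intermembrane space. ClpXP is a complex of an unfolding ring (CLPX) that feeds substrates into a separate protease barrel (CLPP), and CLPX also acts on ALAS1, the rate-limiting enzyme of heme synthesis in liver.

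Sequences are shown for stretches of DNA in or near genes described below. Whether the marked letters play a part in any of the results was not tested. The first is the stretch of 250 bases upstream of the Clpx start site, shown because Clpx was the member with a strong rhythm. It lies at chr9:65294010-65294259 on the plus strand of GRCm38 and overlaps no gene body of GENCODE vM21. The second is an element of the promoter that Hspd1 and Hspe1 share, shown because those genes varied together, and it lies at chr1:55088053-55088082 on GRCm38, written on the strand of Hspe1, upstream of that gene. Hspd1 has a start site at 55088243, for which the element lies 167 bases downstream, within the gene body. Another start site is at 55087932, for which the element lies upstream and in whose promoter window it was counted. Both come from the RefSeq promoter table of assembly GRCm38.p6, in which 7 of the 8 members were matched. The third is the alternative exon of Clpx, with 9 bases of the neighbouring exons on each side, shown because reads across it allow its use to be measured. The exon itself lies at chr9:65312098-65312139 on the plus strand of GRCm38, is coding, and its sequence is that of the Clpx-201 transcript of GENCODE vM21. Capitals mark an E-box-like CACGTT and an NRF1-like GCATGCGC in the first, a heat shock element in the second, and the exon in the third.
Clpx upstream: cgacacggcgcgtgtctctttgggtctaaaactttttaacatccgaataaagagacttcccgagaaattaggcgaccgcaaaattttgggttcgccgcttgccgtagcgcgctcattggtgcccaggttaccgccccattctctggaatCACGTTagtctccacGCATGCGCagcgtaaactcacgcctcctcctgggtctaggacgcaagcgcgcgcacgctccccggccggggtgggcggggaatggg
Hspe1 and Hspd1 element: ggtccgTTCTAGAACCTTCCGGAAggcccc
Clpx alternative exon: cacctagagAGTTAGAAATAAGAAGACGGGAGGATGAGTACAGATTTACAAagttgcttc

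Promoter windows of 300 bases, from 250 before to 50 after the start site, were searched on both strands for short motifs, and a match is a description of letters, not a binding site. CACGTT, which differs from the canonical E-box CACGTG bound by the core clock factors, occurred in 4.68% of 32851 windows and in 1 member, Clpx. CACGTG itself occurred in 7.15% of windows and in those of Lonp1 and Hspd1. The D-box TTATGTAA and the ROR element TAGGTCA were in 0.938% and 2.61% of windows and in none of the matched members. GCATGCGC, which resembles the site of NRF1, a factor of nuclear genes for mitochondria, was in 2.71% of windows and in that of Clpx. TGACGTCA was in 1.79% and in that of Trap1, while TGATGCAA (0.895%) and the endoplasmic reticulum stress element, CCAAT and CCACG with 9 bases between them (0.119%), were in none. A heat shock element of 3 units (GAA, TTC and GAA, each separated by 2 bases) was in 0.603% of windows. The element of 4 units that contains it (TTC, GAA, TTC and GAA, spaced alike) was in 5 of the 32851 windows, of which Hspd1 and Hspe1 supplied 1 each for the same site. The other windows with it belonged to Arpc2, Chordc1 and Fam149a, of which Chordc1 encodes a cochaperone of HSP90. The element ended 72 bases before the start of Hspe1, on chromosome 1 at positions 55088059 to 55088076.

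On GRCm38 the Clpx gene lies at chr9:65294260-65330658 and Clpp at chr17:56990305-56996188, both on the plus strand, Hspd1 at chr1:55077835-55088243 on the minus strand and Hspe1 at chr1:55088132-55091307 on the plus strand. Levels of the genes were first set against each other per length, as CPM per kilobase of exon. The medians over 72 livers were 180 for Hspd1, 121 for Hspa9, 84.9 for Hspe1, 78.9 for Trap1, 45.5 for Clpx, 34.9 for Lonp1, 21.4 for Clpp and 9.45 for Yme1l1. The chaperones thus had higher medians than the proteases. Single livers of neighbours in this order overlapped in every case but the last: Clpp ranged from 12.8 to 30.1 CPM per kilobase and Yme1l1 from 7.63 to 12.4. Clpx alone ranged from 15.9 to 121 CPM per kilobase, from the level of Clpp to that of Hspa9.

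**Figure D1:**
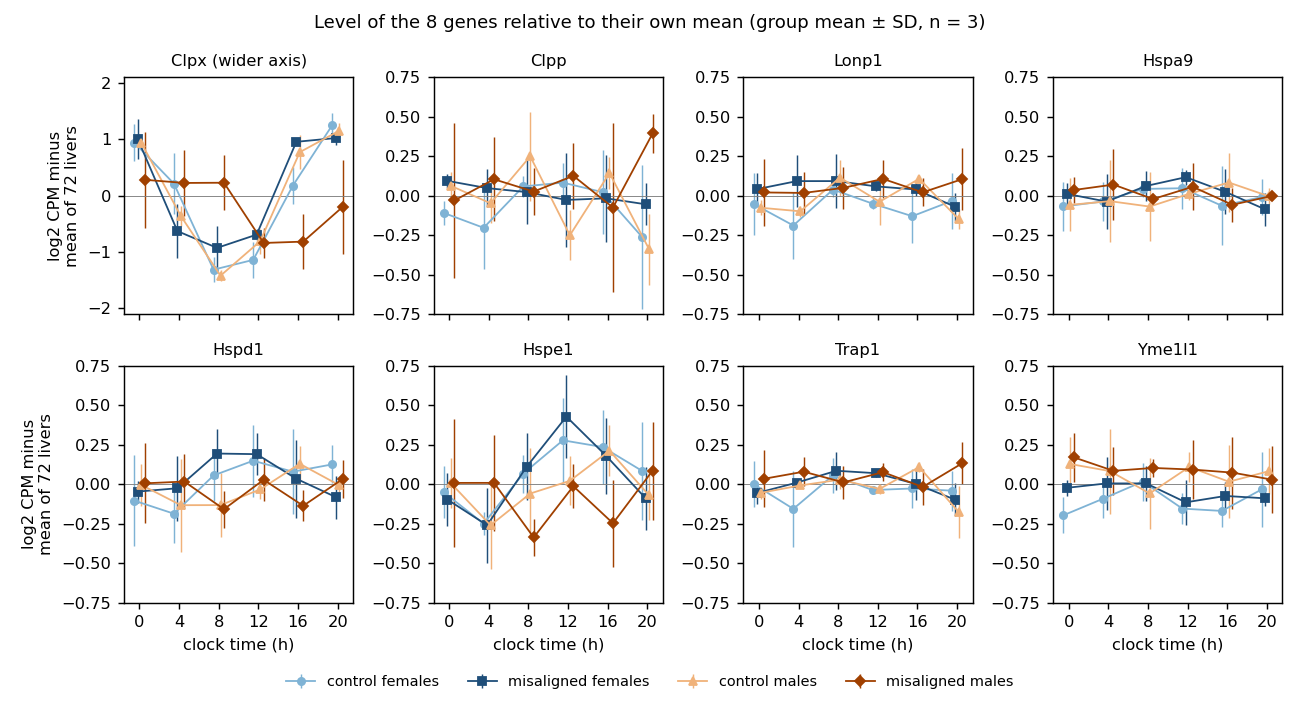
Level of each of the 8 genes by clock time (h), as log2 CPM minus the mean of 72 livers, with group means and SD of 3 livers for control and misaligned females and males. Clpx is drawn on a wider axis than the other 7 genes and fills it, with group means from 59.8 to 385 CPM.

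How far each gene moved differed as much as its level. The highest group mean of Clpx was 6.44 times the lowest: 385 CPM in control females at 20 h against 59.8 CPM in control males at 8 h. For the other 7 genes the same ratio was between 1.15 (Hspa9) and 1.72 (Hspe1). Over all livers the SD of log2 CPM of Clpx was at percentile 96.1 of all tested genes. The percentile was 0.471 for Trap1, 1.33 for Hspa9, 2.1 for Lonp1, 7.12 for Yme1l1 and 11.9 for Hspd1. These 5 genes thus had low SDs among tested genes of any level, and genes of like level were not compared. Clpp and Hspe1 were at percentiles 33.6 and 35.4.

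Clpx encodes the unfolding ring of ClpXP. In control males its CPM was 293, 310 and 318 at 0 h, then 115, 117 and 144 at 4 h, and 55.7, 60.5 and 63.3 at 8 h. It was 83.4, 84.0 and 109 at 12 h, 227, 263 and 343 at 16 h, and 348, 327 and 397 at 20 h. The livers of 0, 16 and 20 h did not overlap those of 4, 8 and 12 h. In control females Clpx was 307, 244 and 387 CPM at 0 h, 238, 223 and 120 at 4 h, and 56.1, 62.7 and 75.9 at 8 h. It was 71.7, 91.6 and 58.3 CPM at 12 h, 161, 235 and 157 at 16 h, and 408, 422 and 326 at 20 h. All livers of 8 and 12 h were below all livers of the other times in these females. Cosines of 24 h were fitted to each sex and treatment, where the amplitude runs from the mean to the peak in log2 units. The amplitude was 1.34 ± 0.13 (SE) in control females and 1.36 ± 0.13 in control males, with a peak at 21.9 ± 0.37 h and 20.5 ± 0.37 h. A rhythm was called in both (edgeR's quasi-likelihood test, Benjamini-Hochberg adjusted over 15066 genes, adjusted p = 5.04e-10 and 1.74e-09). Clpx was the only member called in either, against 12% of all genes in control females and 10.8% in control males. Its amplitude ranked 123 and 76 from the top among the 15066 genes, and its p ranked 8 and 2. The female peak was 1.40 h later, and the sex difference of the control rhythm did not pass the test (unadjusted p = 0.0292, adjusted p = 0.965, 0% of genes called).

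In misaligned females Clpx was 244, 390 and 348 CPM at 0 h, 150, 91.1 and 81.0 at 4 h, and 74.7, 69.6 and 115 at 8 h. It was 91.5, 103 and 103 CPM at 12 h, 304, 313 and 314 at 16 h, and 359, 307 and 312 at 20 h. As in control males, the livers of 0, 16 and 20 h were all above those of 4, 8 and 12 h. The rhythm was called (adjusted p = 1.23e-08, 7.69% of all genes called), its amplitude being 1.19 ± 0.13 and its peak time 20.2 ± 0.42 h. The peak was 1.70 ± 0.56 h earlier than in control females, but the change of rhythm did not pass the test (adjusted p = 0.359, where 0.192% of genes were called).

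Misaligned males were unlike the other sets. Their Clpx was 161, 121 and 377 CPM at 0 h, 191, 123 and 278 at 4 h, and 224, 233 and 127 at 8 h. It was 110, 79.4 and 81.8 CPM at 12 h, 93.8, 125 and 63.9 at 16 h, and 72.1, 213 and 178 at 20 h. At 0 h the highest liver stood far above the other two, and the times were no longer separated into high and low. The SD of log2 CPM within a clock time was 0.621, compared with 0.185 in control males, 0.343 in control females and 0.296 in misaligned females. The SEs and tests by clock time, here and below, use a single spread per gene that all sets share. They may therefore understate the uncertainty in misaligned males. The fitted amplitude was 0.68 ± 0.13 and the peak was at 2.50 ± 0.73 h. That rhythm was not called (adjusted p = 0.124, unadjusted p = 2.75e-05), in a set in which 0.00664% of all genes, a single gene, passed. By DESeq2 it was called (adjusted p = 0.0382). Without any 1 of 4 misaligned male livers (replicate 2 at 0, 4 or 8 h, or replicate 1 at 12 h) edgeR also called it, with adjusted p = 0.0351, 0.0072, 0.0477 and 0.0352.

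**Figure D2:**
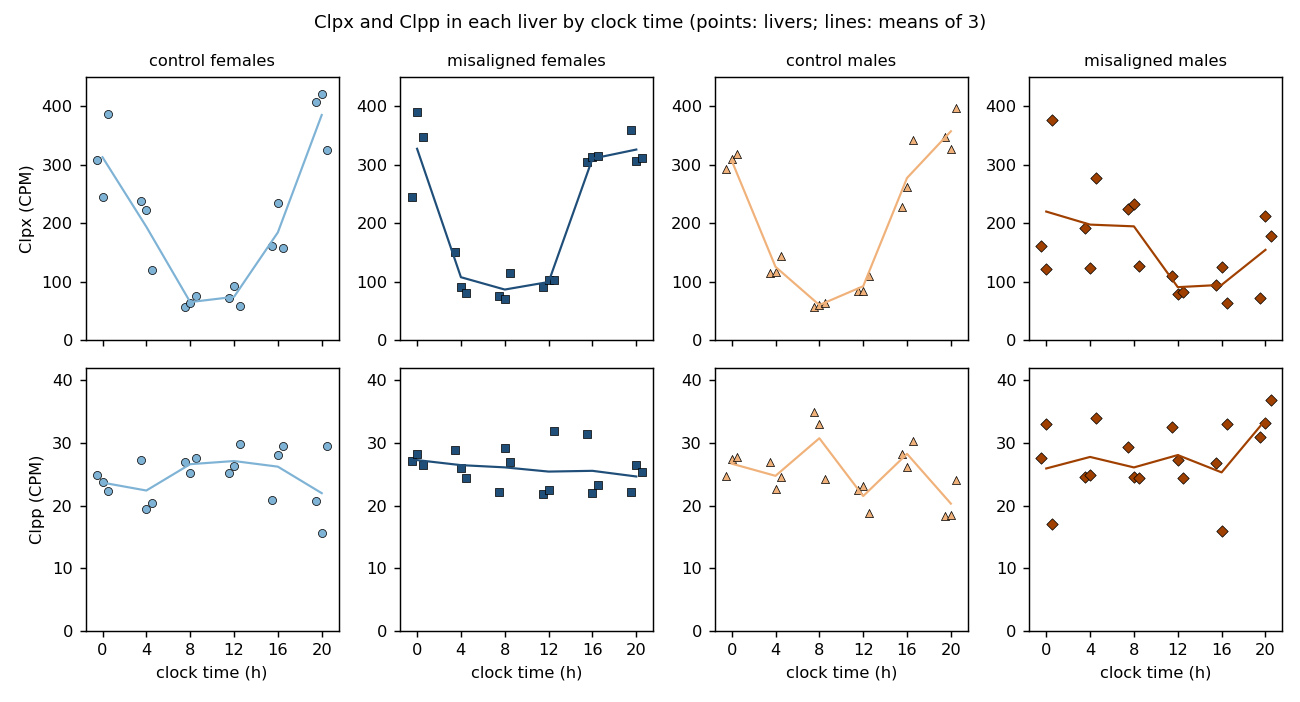
Clpx (top row) and Clpp (bottom row) in CPM against clock time (h) in control and misaligned females and males, with 1 point per liver and lines through the means of 3 livers. Clpx spans 55.7 to 422 CPM and its trough at 8 and 12 h is missing at 8 h in misaligned males, while Clpp stays between 15.7 and 36.8 CPM.

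Tested without a cosine, as an effect that was unequal over the 6 times, Clpx was called in males (adjusted p = 9.34e-06, 9.26% of genes called) and not in females (unadjusted p = 0.00957, 0.0332% called). The change of the Clpx cosine in males was called too (adjusted p = 8.7e-07), and its p was the second smallest of all 15066 genes, of which 9.23% were called. The fitted peak was 6.02 ± 0.82 h later by clock time (SE from the shared spread) and the amplitude was 0.505 times that of control males. This change differed from that in females (adjusted p = 5.18e-05, the p ranking 5 of 15066, 1.73% of genes called). No other member was called in the change in either sex or in its sex difference. The call of the sex difference was lost without the livers numbered 1 in every group (adjusted p = 0.0593), and it held in all 72 fits that left out 1 liver each.

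Single clock times show where the misaligned males departed. At 8 h Clpx was higher than in control males by 1.70 ± 0.32 in log2 (adjusted p = 0.0044, 0.392% of genes called), and the 3 misaligned livers (127 to 233 CPM) were all above the 3 controls (55.7 to 63.3 CPM). At 16 h it was lower by 1.55 ± 0.32 (adjusted p = 0.00804, 1.08% called), with 63.9 to 125 CPM against 227 to 343 CPM. At 20 h it was lower by 1.21 ± 0.31 (adjusted p = 0.00941, 14.4% called), with 72.1 to 213 CPM against 327 to 397 CPM. The groups did not overlap at any of these times. At 0, 4 and 12 h the differences of -0.48 ± 0.31, 0.66 ± 0.31 and -0.03 ± 0.31 were not called, nor was any other member, where 0.378%, 0.00664% and 0% of genes passed. The call at 16 h was lost without control replicate 3 (adjusted p = 0.0596) and that at 20 h without misaligned replicate 1 (adjusted p = 0.0697). With the male libraries fitted alone the calls at 8 and 16 h were lost (adjusted p = 0.0685 and 0.0748). Without the livers numbered 1, or those numbered 2, which leaves 2 per group, no member was called at a single time in males. In females no member was called at any clock time by edgeR, limma or DESeq2, where 0% to 0.0664% of genes passed. Clpx had an unadjusted p of 0.00856 at 4 h and 0.0185 at 16 h in females, and Lonp1 0.0164 at 4 h.

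A mean over the clock times hid these opposite changes. Averaged over 6 times, Clpx differed between misaligned and control mice by 0.09 ± 0.13 in females and by -0.15 ± 0.13 in males. For all 8 members the mean effects lay between -0.15 and 0.14 in both sexes, and none was called by edgeR, limma or DESeq2. The smallest unadjusted p was 0.0202 (Lonp1 in females), the only one under 0.05. The share of all genes called was 0.00664% in females and 0% in males, where 932 genes had an unadjusted p under 0.05. The 95% intervals reached from -0.41 to 0.35 in log2 for Clpx over both sexes, and up to 0.30 for Clpp in males, the farthest bound of the other members.

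Each liver also carried its own record of time in its core clock genes. The time of every liver was read from 14 of them (among them Arntl, Npas2, Per3, Cry1, Nr1d1 and Dbp), none of which is a member of the 8, by comparison with the control livers of its sex. The reading was within 2 h of the clock time in 17 of 18 control females, 16 of 18 control males, 8 of 18 misaligned females and 3 of 18 misaligned males. It was more than 4 h away in 15 misaligned males and 2 misaligned females. Ordered by this reading, the Clpx of misaligned males followed the sequence seen in controls. The liver read at 22.6 h had the highest level, 377 CPM, and the liver read at 7.32 h the lowest, 63.9 CPM. At a clock time of 8 h, where Clpx was unlike controls, the livers were read at 2.13, 2.42 and 3.49 h and had 224, 233 and 127 CPM. At 20 h they were read at 8.02, 15.7 and 13.8 h and had 72.1, 213 and 178 CPM. The wide scatter among livers of 1 clock time was thus accompanied by a wide scatter of their readings.

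Over the reading, the Clpx rhythm of misaligned males reached 1.22 ± 0.13 in amplitude and peaked at 20.8 ± 0.26 h (adjusted p = 4.72e-11, 11.5% of genes called). Control males had 1.27 ± 0.09 and 20.6 ± 0.30 h on the same scale. In misaligned females the amplitude was 1.23 ± 0.09 and the peak was at 22.1 ± 0.30 h (adjusted p = 7.7e-16, 10.7% called), beside 1.36 ± 0.09 and 21.8 ± 0.26 h in control females. The median distance of a misaligned male liver from the control curve of Clpx was 0.963 log2 units at its clock time and 0.232 at its reading, and 15 of 18 livers were closer at the reading. In misaligned females it was 0.383 and 0.156, and 12 of 18 were closer. The control livers themselves lay 0.138 (males) and 0.203 (females) from their curve at clock time. That curve was fitted to the control livers alone, so their distances are not a like measure to those of misaligned livers. Because the reading comes from the same libraries and its error is not carried into the fit, these p-values describe how Clpx followed the clock genes of its own liver.

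**Figure D3:**
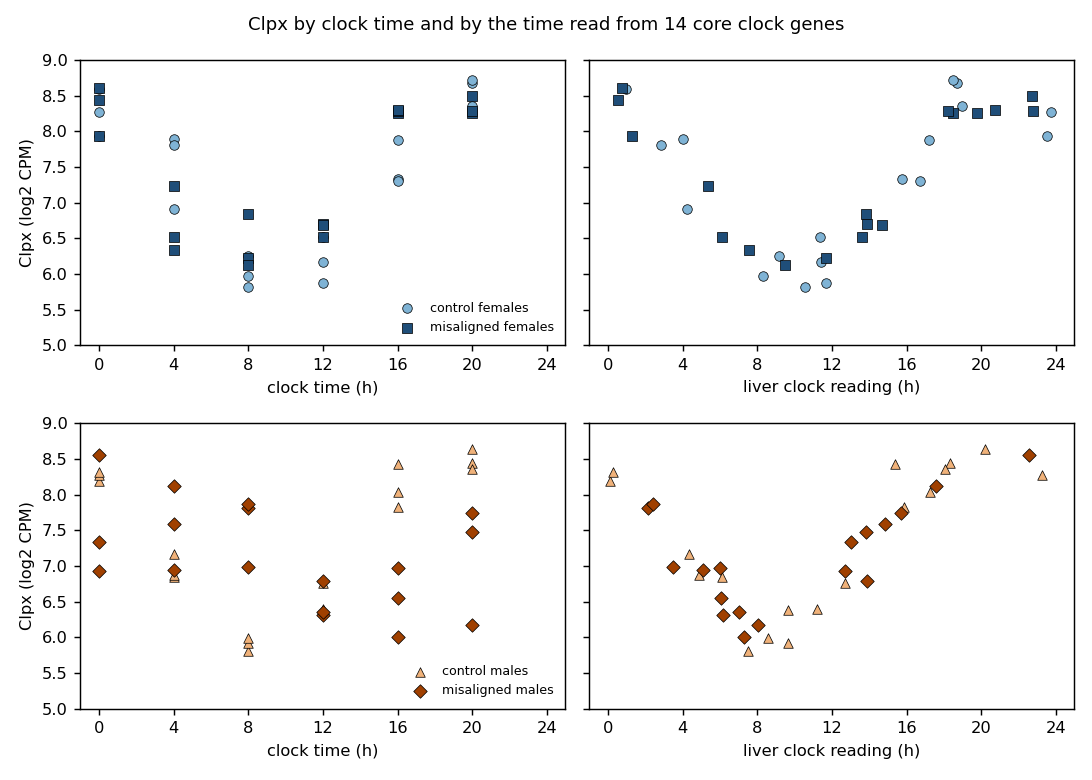
Clpx (log2 CPM) in each liver of females (top) and males (bottom) against clock time (left, h) and against the time read from 14 core clock genes of the same liver (right, h), for control and misaligned mice. In misaligned males the points scatter by clock time and fall along those of the controls by reading, where the median distance from the control curve is 0.232 in place of 0.963.

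Reads in introns gave a second view, since they can come from RNA not yet spliced, though their origin was not tested here. The introns of Clpx held 58 to 564 counts per liver, summed over 13 introns. Their rhythm was called in control females, control males and misaligned females (adjusted p = 8.98e-08, 2.08e-06 and 2.68e-05 over 9868 genes, of which 4.51%, 2.87% and 2.5% were called). In misaligned males it was not called (adjusted p = 0.0689, with 0% of genes called and 674 at an unadjusted p under 0.05). The change in males and its difference from females were called (adjusted p = 1.72e-04 and 0.024, with 2.07% and 0.567% of genes called). Intron peaks were at 20.3 h in control females, 19.2 h in misaligned females, 19.3 h in control males and 1.25 h in misaligned males. The peak of the gene counts came after that of the introns in each set, by 1.5, 0.94, 1.2 and 1.2 h in that order, with SEs of the single peaks between 0.37 and 0.78 h. The last intron supplied 54.5% of these counts, and without it the intron peaks moved to 20.9, 19.8, 19.8 and 1.92 h and the gene peaks came 0.93, 0.32, 0.69 and 0.58 h after them, while the male change (adjusted p = 7.7e-05) and the sex difference (adjusted p = 0.0115) were still called. No intron rhythm of another member was called in any of these comparisons.

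The alternative exon of Clpx is exon 6 of 14, has 42 bases or 14 codons, and is skipped in the transcript with 13 exons. Its inclusion was measured as the share of junction reads that enter or leave it, from 23.5 to 221 reads per liver (the mean of its 2 junctions plus the skipping reads). The range over livers was 69.8% to 91.5% with a median of 79.4% in control females, and 72.04% to 92.2% with a median of 78.2% in misaligned females. It was 68.0% to 92.0% with a median of 78.7% in control males, and 71.9% to 96.6% with a median of 86.4% in misaligned males. The sets overlapped widely. Pooled over reads, inclusion was 80.2% and 77.8% in control and misaligned females and 78.0% and 83.8% in control and misaligned males. At 12 h the misaligned males, between 92.5% and 96.6%, lay above the control males, between 74.6% and 85.7%, and above the females of that time, whose highest was 90.9%. These values rest on few skipping reads: 3, 4 and 1 in the misaligned males and 7, 9 and 13 in the control males. The exon was picked after its reads had been seen, and no test was made of it.

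**Figure D4:**
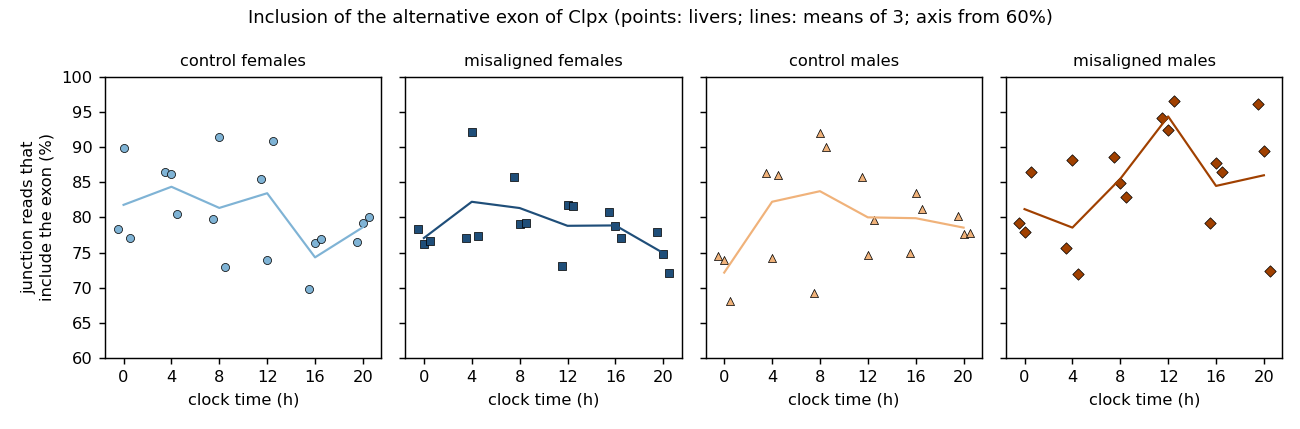
Share of junction reads (%) that include the alternative exon of Clpx against clock time (h) in control and misaligned females and males, with 1 point per liver, lines through means of 3 livers and an axis that starts at 60%. Most livers lie between 70% and 90%, and the misaligned males of 12 h lie between 92.5% and 96.6%, with 1 to 4 skipping reads each.

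Clpp encodes the protease barrel that CLPX serves, and it had no rhythm like that of its partner. Its CPM ranged from 15.7 to 29.8 in control females, 21.9 to 31.9 in misaligned females, 18.3 to 35.02 in control males and 16.0 to 36.8 in misaligned males. Over clock time no rhythm of Clpp was called in any set, with amplitudes of 0.05 to 0.15 and SEs of 0.08. Over the liver clock reading its amplitude in misaligned males was 0.24 ± 0.09, with a peak at 13.0 h. By edgeR that rhythm was not called (adjusted p = 0.0842, and 0.0416 to 0.599 without a replicate number). At clock time 20 h Clpp was 18.3, 18.5 and 24.2 CPM in control males and 31.0, 33.3 and 36.8 CPM in misaligned males. These groups did not overlap, and Clpp was higher in misaligned males by 0.73 ± 0.20 in log2 (adjusted p = 0.0122, 14.4% of genes called at this time). Clpp and Clpx thus changed in opposite directions at 20 h. The Clpp call was lost without control replicate 1, control replicate 2 or misaligned replicate 3 (adjusted p = 0.0543, 0.085 and 0.0638). At 20 h the scaling factors alone shifted every gene by 0.26 in favour of misaligned males, and with plain totals the Clpp difference was 0.469 (adjusted p = 0.0649). At 16 h this shift was -0.17.

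The ratio of ring to barrel transcripts followed Clpx. Per kilobase of exon, the ratio of Clpx to Clpp ran from 0.685 to 9.43 in control females, 0.835 to 5.67 in misaligned females, 0.557 to 6.66 in control males and 0.676 to 7.72 in misaligned males. The medians were 2.80, 2.49, 2.43 and 1.78. In each set the ratio passed from below 1 to above 5.

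Alas1, on whose product CLPX acts, was high when Clpx was low in controls. In control females its amplitude was 1.55 ± 0.20 and it peaked at 12.1 h (adjusted p = 5.82e-07), and in control males these were 0.95 ± 0.20 and 9.45 h (adjusted p = 0.00134), close to the Clpx trough of 8 to 12 h. Its rhythm changed in males (adjusted p = 0.00615), and this change differed from that in females (adjusted p = 0.0338). In misaligned males its rhythm was not called, with a fitted peak at 18.4 ± 2.25 h and an amplitude of 0.34 ± 0.20. Of the other genes listed around ClpXP and LONP1, Fech, Tfam and Star were called neither in the male change nor in its sex difference.

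The HSP60 and HSP10 genes Hspd1 and Hspe1 lie head to head on chromosome 1. Over the 24 group means, the log2 CPM of the pair had a Pearson r of 0.865, the highest of all pairs of members, as a description of means taken over the same libraries. Per kilobase of exon, Hspd1 was 1.62 to 2.91 times Hspe1 in all livers, with medians of 2.04 to 2.19 in the 4 sets. In misaligned females Hspe1 was 125, 103 and 126 CPM at 0 h, 100, 91.6 and 126 at 4 h, and 125, 124 and 161 at 8 h. It was 147, 158 and 207 CPM at 12 h, 138, 170 and 123 at 16 h, and 102, 121 and 134 at 20 h. The livers of 12 h were above all livers of 0, 4 and 20 h. This rhythm of 0.29 ± 0.08 with a peak at 12.9 h was called (adjusted p = 0.0188), but not without misaligned female replicate 3 at 12 h (adjusted p = 0.127), nor without all livers numbered 1 or 2 (adjusted p = 0.0674 and 0.286).

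In control females the Hspe1 amplitude was 0.24 ± 0.08, peaking at 14.6 h (adjusted p = 0.0602), past the threshold with plain totals (0.0335), a filter at a mean of 5 CPM (0.048), DESeq2 (0.0489) or the female libraries alone (0.0345). In control males it was 0.15 ± 0.08 (adjusted p = 0.368). Over the liver clock reading, a rhythm of Hspe1 was called in misaligned females (0.33 ± 0.07, peak at 15.7 h, adjusted p = 9.91e-04) and in misaligned males (0.29 ± 0.07, peak at 14.03 h, adjusted p = 0.00234). Leaving out a replicate number could end both calls, with adjusted p up to 0.0892 and 0.0767. The median distance of misaligned females from the control curve of Hspe1 was 0.153 log2 units at clock time and 0.155 at the reading. Only 8 of these 18 livers were closer at the reading. For misaligned males the distances were 0.242 and 0.137, and 13 of 18 were closer. Hspd1 peaked at 14.7 h in control females and at 10.4 h in misaligned females with amplitudes of 0.15 ± 0.06 each, which did not pass (adjusted p = 0.163 and 0.204). Over the reading its adjusted p was 0.0784 in misaligned females, past the threshold with DESeq2 (0.0356) or a filter at a mean of 5 CPM (0.0486), and 0.166 in misaligned males.

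**Figure D5:**
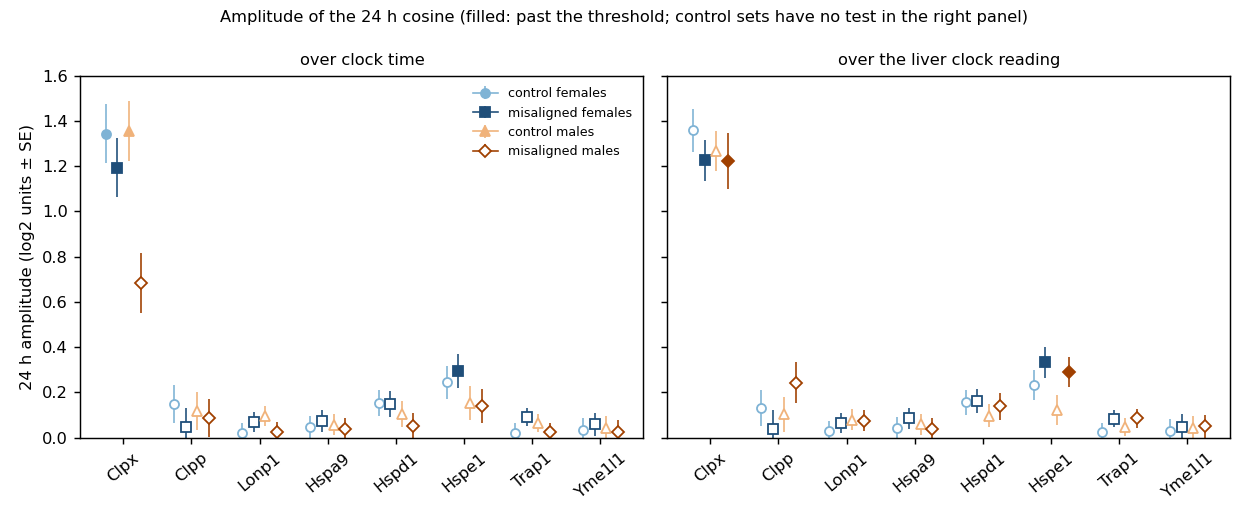
Amplitude of the 24 h cosine (log2 units, mean to peak, with SE) of the 8 genes in each sex and treatment, over clock time (left) and over the liver clock reading (right); filled symbols passed the test, and the controls in the right panel were not tested. Clpx lies above 1.1 except in misaligned males over clock time (0.68), and the other genes lie below 0.4, with Hspe1 filled in misaligned females in both panels and in misaligned males over the reading.

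The other chaperones, Hspa9 and Trap1, changed little. Hspa9 ranged from 409 to 652 CPM and Trap1 from 154 to 239 CPM over all livers. Their amplitudes were 0.02 to 0.09 with SEs of 0.04 to 0.05, and no rhythm was called. At 20 h Trap1 was 184, 158 and 197 CPM in control males and 200, 229 and 239 CPM in misaligned males, without overlap, a difference of 0.31 ± 0.10 (adjusted p = 0.0279). With plain totals it was 0.0465 (adjusted p = 0.72), and the call was also lost without control replicate 1 or 2 or misaligned replicate 2 or 3 (adjusted p = 0.052 to 0.196), with no filter (0.0645) or with the male libraries alone (0.0532).

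Of the proteases, Lonp1 ranged from 121 to 181 CPM with amplitudes of 0.02 to 0.10, and no comparison called it. Yme1l1 was the only member called between the sexes. Its median was 71.4 CPM (61.1 to 87.6) in control females and 80.1 CPM (64.3 to 99.7) in control males, and the ranges overlapped. Averaged over clock times, females were lower by 0.17 ± 0.05 in log2 among controls (adjusted p = 0.0116) and by 0.15 ± 0.05 among misaligned mice (adjusted p = 0.0282). The background was high, with 32.9% and 37.7% of all genes called between the sexes, so 1 of 8 members was below it. The marker sums of stellate cells, Kupffer cells and adipocytes given above also differed between the sexes, and their part in this difference was not tested. The call in controls was lost without all livers numbered 3 (adjusted p = 0.248). The call in misaligned mice was lost with no filter (adjusted p = 0.091) and without any 1 of 5 misaligned livers, namely female replicate 2 at 4 h and male replicates 1 at 4 h, 3 at 12 h, 2 at 16 h and 1 at 20 h (adjusted p = 0.0511 to 0.0642). The sex difference of Clpx in misaligned mice was not called (0.24 in log2, adjusted p = 0.127), but it was without misaligned male replicate 3 at 0 h (0.348, adjusted p = 0.0151). A component of 12 h was called in no member in control females or males by edgeR, limma or DESeq2, and no member had an unadjusted p under 0.05. Of all genes 0.073% and 0% were called, with 723 at an unadjusted p under 0.05 in males.

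Further genes of mitochondrial proteostasis were taken as lists. Of 25 other mitochondrial chaperones, proteases and cofactors, a rhythm was called for 5 in control females and for 3 in control males, beside 12% and 10.8% of all genes, so the male share was near the background. Phb2 (a prohibitin), Afg3l2 (a subunit of the matrix-facing protease of the inner membrane) and Parl (a rhomboid protease) were called in both. The median amplitude of the list was 0.11 in both control sets, beside 0.17 for all tested genes of any level. Only Phb2 of the 25 was called in the rhythm change of males (adjusted p = 0.00228), a share below the 9.23% of all genes. Its fitted peak was at 10.5 ± 0.80 h in control and 21.2 ± 1.74 h in misaligned males, where its rhythm was not called. Immp2l, a peptidase of the inner membrane, was the only one of the 25 called in the sex difference of that change (adjusted p = 0.0487), beside 1.73% of all genes.

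Of 23 genes of protein import, a rhythm was called for 6 in control females and for 5 in control males, and 5 were called in the rhythm change of males, where the shares of all genes were 12%, 10.8% and 9.23%. Timm10, a chaperone of the intermembrane space, was called in the male change (adjusted p = 0.00203). Its fitted peaks were at 9.33 ± 1.05 h in control males and 18.5 ± 1.01 h in misaligned males. Timm17a and Tomm40, channel subunits of the inner and outer membrane, were called as well (adjusted p = 0.0037 and 0.00714). No rhythm of the 23 was called in misaligned males over clock time, beside 0.00664% of all genes. Over the liver clock reading 14 of the 23 were called in misaligned males and 5 in misaligned females, beside 11.5% and 10.7% of all genes. Among 14 genes that mark mitochondrial content, Vdac2 and Cs were called in the male change (adjusted p = 0.00581 and 0.0177), a share near the 9.23% of all genes, and the other 12 were not.

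Stress pathways were compared because they are known to raise mitochondrial chaperones. Of 15 genes of the mitochondrial and integrated stress responses, 1 was called in the male rhythm change, beside 9.23% of all genes. This count was not above the background. The gene was Atf5, a transcription factor of the mitochondrial unfolded protein response (adjusted p = 2.08e-05). Atf5 was also the 1 called in the sex difference of the change (adjusted p = 0.00373), beside 1.73% of all genes. It peaked at 23.4 h in control females and 22.8 h in control males, where Clpx peaked at 21.9 and 20.5 h. In misaligned males the fitted peaks were at 7.01 ± 0.95 h for Atf5 and 2.50 ± 0.73 h for Clpx, and neither rhythm was called. Of 16 cytosolic targets of heat shock factor, a rhythm was called for 11 in control females, for 5 in control males and, over the reading, for 13 in misaligned males and 6 in misaligned females, beside 12%, 10.8%, 11.5% and 10.7% of all genes. Over clock time edgeR called 0 of the 16 in misaligned females and 0 in misaligned males, beside 7.69% and 0.00664% of all genes. Of the 16, 7 and 1 had an unadjusted p under 0.05 in that order. In the male change 2 were called, beside 9.23% of all genes. Hsp90aa1, the inducible cytosolic HSP90, peaked at 17.6 h in control females (amplitude 0.69 ± 0.13), where Hspe1 peaked at 14.6 h. Of 14 chaperones of the endoplasmic reticulum, 13 were called rhythmic in control males, 13 in the male change and 7 in the sex difference of the change, beside 10.8%, 9.23% and 1.73% of all genes. In control females edgeR called 0 of the 14, beside 12% of all genes. There 4 of the 14 had an unadjusted p under 0.05, beside 3884 of all 15066 genes. Hspa5, the HSP70 of that organelle, peaked at 22.4 ± 0.60 h in control males with an amplitude of 0.69 ± 0.11. In misaligned males its rhythm was not called, with a fitted peak at 7.75 ± 1.86 h and an amplitude of 0.22 ± 0.11. Its change in males was called (adjusted p = 2.67e-04). Its amplitude in control females was 0.20 ± 0.11. Like Hspa5, Manf, Pdia4 and Hyou1 were called in the male change and in its sex difference.

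Genes with the pattern most like each member were found by Pearson correlation of group mean log2 CPM over 24 groups among 13013 genes. Clpx was most like Chka (r = 0.984), Ddc (0.9749) and Dtx4 (0.973). Its r with the other members lay between -0.416 (Trap1) and -0.0481 (Yme1l1), negative throughout. Clpp was most like Cope (0.890), Apoc4 (0.879) and Rabac1 (0.877), and Lonp1 like Acads (0.858), Acadvl (0.821) and Trap1 (0.820). Trap1 was most like Gcdh (0.890), Uqcrc1 (0.885) and Timm50 (0.882), and Hspa9 like Csnk1g3 (0.752), Ccny (0.737) and Slc25a13 (0.732). Hspd1 was most like Agmo (0.891), Prps1l3 (0.890) and Hspe1 (0.865), Hspe1 like Lingo4 (0.886), Agmo (0.885) and Ces1d (0.880), and Yme1l1 like Tnpo1 (0.920), Tm9sf3 (0.905) and Ppp1cb (0.903). These values describe means over the same 72 libraries and carry no test.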

How the data were processed

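Per the labels, libraries were stranded, poly(A) selected and sequenced as pairs of 150 bp, from biological replicates. The submitters' processing notes name STAR 2.6.0c and the build GRCm38. The deposited tables hold whole-number counts per gene, intron and junction. The sense gene counts labelled MIN were used, and library totals differed by at most 8.47%. edgeR 4.0.16 (R 4.3.3) filtered genes over the 24 groups, scaled by TMM (0.836 to 1.17) and fitted robust quasi-likelihood models of group means (48 residual degrees of freedom) and of cosines over clock time (24 h, or with 12 h added) or over the liver clock reading. Each gene had a single spread estimate that all groups shared. Tests were adjusted over all genes by Benjamini-Hochberg at 0.05. Log2 CPM used a prior count of 2. Alternatives included limma-voom 3.58.1, DESeq2 1.42.0, other scalings, filters and counts, a replicate block and left-out replicates or livers. The models were tested on simulated data. Positions and exon lengths are from GENCODE vM21. Named genes are the 8 members, the 3 genes most like each, and up to 4 genes per list called in the male rhythm change or its sex difference; Afg3l2, Parl and the genes sharing the heat shock element were named after their values were seen. The members and the gene lists were chosen with earlier results of these data known, and some listed genes are not reported here. Figures used Python 3.11.15 and matplotlib 3.10.9.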

Additional observations from a re-analysis of the deposited data

Results flagged for a closer look

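The change of the 24 h rhythm with misalignment differed between females and males in tests of the difference itself (edgeR's quasi-likelihood test, adjusted over 15066 genes). Clpx was the only one of the 8 members for which it did, with adjusted p = 5.18e-05. Its fitted peak was 1.70 h earlier in misaligned than in control females and 6.02 h later in misaligned than in control males. By the same test, its change in females was not called alone (adjusted p = 0.359), nor was its rhythm in misaligned males (adjusted p = 0.124). The clock readings of misaligned male livers scattered widely. Among the other named genes the same difference had adjusted p = 0.00373 for Atf5, 0.00905 for Manf, 0.0103 for Pdia4, 0.0138 for Hspa5, 0.0246 for Hyou1, 0.0338 for Alas1 and 0.0487 for Immp2l. In all genes tested 1.73% were called.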

How the results depend on the processing

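The number of members called was compared across settings. Apart from left-out livers, 197 of 207 such counts were within 1.5 times the reported one. Plain totals gave 2 calls for the sex difference in misaligned mice (reported 1), 3 at single times in males (reported 5) and 2 rhythms in control females (reported 1). No filter gave 0 for the sex difference in misaligned mice. DESeq2 gave 2 for the unequal effect over times in males, 2 rhythms in control females and 1 in misaligned males (Clpx, reported 0). A mean of at least 5 CPM gave 2 rhythms in control females, as did the female libraries alone, and the male libraries alone gave 2 calls at single times. Among single values, 243 of 258 kept their call, 8 lost it, 7 gained it and 0 reversed. Leaving out a replicate number gave 0 to 1 calls for the sex difference in controls, in misaligned mice and of the rhythm change, 0 to 4 at single times in males, 1 to 2 for the unequal effect in males, 1 to 2 rhythms in misaligned females, 0 to 1 in misaligned males, and over the reading 1 to 2 in misaligned females and 1 to 3 in misaligned males. Leaving out 1 liver gave 0 to 2 calls for the sex difference in misaligned mice, 3 to 5 at single times in males, 1 to 2 for the unequal effect in males, and 1 to 3, 1 to 2 and 0 to 1 rhythms in control females, misaligned females and misaligned males. The cause was not tested. The change of the Clpx rhythm in males had adjusted p between 2.11e-05 and 0.00603 without a replicate number and between 3.41e-08 and 5.61e-06 without 1 liver. Replicate numbers did not pair the livers (r above 0.1 in 9 of 36 pairs, and 24 of 72 livers correlated best with their own number). With the replicate block, the rhythm change was again called for 1 member in males and its sex difference for 1, and no count of called members changed. With 3 livers a group, a single clock time rests on few values: Clpp had 190 to 427 counts per liver.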
